A study of Rattus norvegicus with 8 samples.

Results

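The nuclear-encoded subunits of the respiratory chain and of the ATP synthase were followed in rat BRL-3A cells after an siRNA aimed at lnc19959.2, a long noncoding RNA. Members were the non-control probes whose gene name in the array files begins with Nduf, Uqcr, Cox4 to Cox8 or Atp5. The rule found 104 probes of 85 gene names, of 41012 probes and 35071 names on the array. It used names alone and no measured value. By known function, 70 of the 85 names are subunits of complexes I, III, IV or V, 8 are assembly factors of complex I, and 7 are copies, pseudogenes or proteins that are not subunits. The name rule takes no mitochondrially encoded subunit. The array's gene names were searched for those subunits under their usual symbols and none was found, so they were not analysed here.

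BRL-3A is an established line derived from rat liver, and all the cells were of this 1 line. The first group of 4 arrays came from cells labelled as transfected with siRNA lnc19959.2, and the second group of 4 arrays from cells whose transfection is labelled NC. All were transfected with lipofectamine and collected 48 h later, and their total RNA was labelled with Cy3 and read on 1-colour Agilent arrays of the rat genome, with an array for each sample. The labels do not say how many siRNA sequences were used, and no probe of the array carries the name lnc19959.2, so the knockdown was not checked here.

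The respiratory chain sits in the inner mitochondrial membrane. Complex I takes electrons from NADH and passes them to ubiquinone, complex III hands them on to cytochrome c, and complex IV gives them to oxygen. These complexes pump protons out of the matrix, and the ATP synthase, called complex V here, lets the protons return through its membrane part (Fo) and makes ATP in its head (F1). Apart from a small set of subunits encoded by mitochondrial DNA, all subunits are encoded in the nucleus, so their transcripts can be read on an array like this one. The roles given for single genes are known mainly from bovine, human and mouse work.

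Levels are log2 processed intensities minus the array's 75th percentile, so 0 is the 75th percentile of an array, and a level of one probe cannot be set against that of another probe. The 75th percentile itself was 289 to 322 intensity units on siRNA arrays and 245 to 261 on NC arrays, and 55.4% to 59.1% of spots on siRNA arrays lay well above background, against 57.3% to 64.1% on NC arrays. Over all kept probes, r was 0.986 to 0.993 for arrays of the same group and 0.946 to 0.962 for arrays of different groups. The siRNA arrays shared slide 2 and scan 2, and the NC arrays shared slide 1 and scan 1. For every value given here, group therefore cannot be told apart from slide or scan. Of 10 markers of hepatocytes, 5 (Alb, Serpina1, Tat, Tf and Ttr) were above background on no array, while 6 of the 7 fibroblast and stellate cell markers on the array were above background on all arrays. Single markers moved strongly in both directions. Apoa1 (-4.45; 1 of 4 siRNA arrays and all NC arrays above background), Cd68 (-2.39) and Pdgfrb (-0.50) fell. Vwf was at least 8.15-fold lower, above background on no siRNA array. Col3a1 (2.66), Kdr (1.65) and Col1a2 (0.61) rose, as did Hnf4a (0.84; all siRNA arrays and 1 of 4 NC arrays above background). Apoa1 and Hnf4a each passed the filter through 1 group alone, so their values rest partly on signals below background. Summed over the measured markers of a list, as linear signal relative to the 75th percentile, 3 hepatocyte markers came to 0.139 to 0.206 on siRNA arrays and 0.780 to 0.952 on NC arrays, and 6 fibroblast and stellate markers to 311 to 328 on siRNA arrays and 266 to 293 on NC arrays. The sums were 5.14 to 6.20 on siRNA arrays and 6.40 to 7.24 on NC arrays for 2 leukocyte markers, and 2.94 to 4.14 on siRNA arrays and 1.36 to 1.92 on NC arrays for 2 endothelial markers. Such sums add unlike probes, so bright probes weigh most and the moves within a list are hidden. Apoa1 fell where Hnf4a rose, Pdgfrb fell where Col3a1 rose, and Vwf fell where Kdr rose. Cd68 fell, while Cd14 changed by 0.20 and was not called. The sums are therefore no measure of the share of a cell type. The part of these shifts in the results was not tested. In bulk RNA, a change in the cells present and a change in the RNA per cell cannot be told apart. With 4 arrays a group, precision is set by that number.

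The transcripts of the respiratory chain and ATP synthase were higher in siRNA cells almost throughout, by a small amount. Of the 70 subunit genes, 65 had a probe bright enough to test, and 59 of these rose, 1 fell and 5 did not pass the test. Of the 104 member probes, 98 were kept for the test, 97 of them above background on all 8 arrays. The median log2 fold change of the 65 was 0.40, or 1.32-fold, and the values ran from -0.32 for Cox4i2 to 0.72 for Uqcrh. Over all 20674 gene names tested in the same way, 30.0% rose, 31.5% fell, and the median log2 fold change was -0.02. The test was limma's moderated test over 24853 kept probes, with Benjamini-Hochberg adjustment and calls at an adjusted p under 0.05. Each gene is given by the brightest of its kept probes.

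With assembly factors and other names included, 80 of the 85 genes were tested, of which 67 rose, 2 fell (Cox4i2 and Ndufaf4) and 11 were not called. No member was called at 2-fold or more, where the share over all genes was 14.0%. The 4 siRNA arrays lay above all 4 NC arrays for 69 of the 80 genes and below them for 2, against 28.9% and 29.2% of all genes. On each of the 4 siRNA arrays taken alone, 64 of the 65 subunits lay above their NC mean. The median distance from the NC mean over the 65 subunits was 0.42, 0.43, 0.42 and 0.34 on the 4 siRNA arrays and 0.07, -0.02, -0.05 and -0.01 on the 4 NC arrays.

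**Figure D1:**
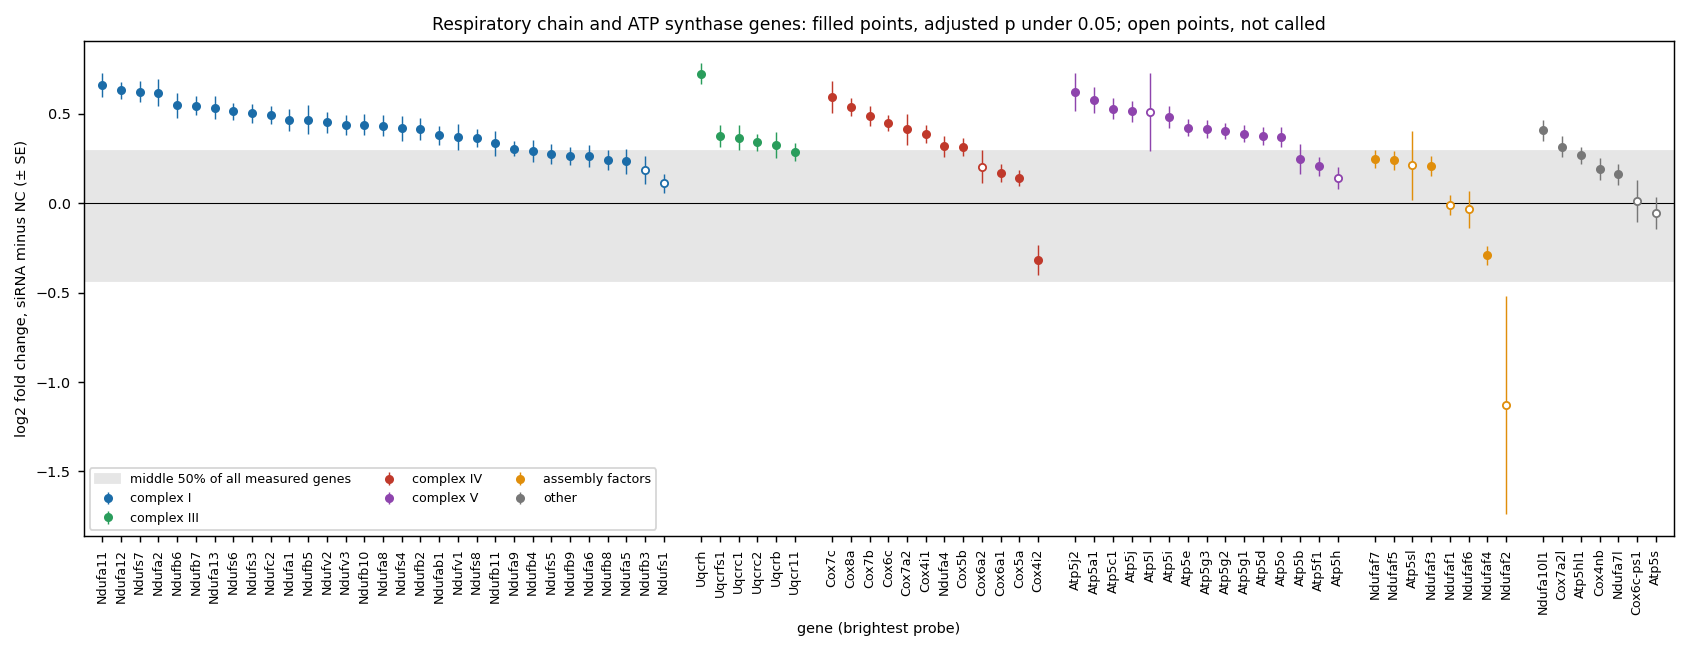
Each point is the log2 fold change, siRNA minus NC, of a gene's brightest probe with the SE of the fit, grouped by complex; filled points have an adjusted p under 0.05 and the grey band holds the middle 50% of all tested genes (-0.44 to 0.29). One measured member is not drawn. The subunits drawn lie above 0, with Cox4i2 the exception, and the points of the assembly factors spread on both sides of it.

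The scaling between arrays sets where 0 lies. Scaling to the array median adds 0.31 to every log2 fold change, and scaling to the spike-in spots adds 0.54; under the first, 52.3% of all kept probes rose and 16.9% fell, and under the second 65.8% rose and 10.8% fell, against 29.7% and 31.9% with the 75th percentile. The median of the subunits lay above that of all kept probes by 0.43 with the 75th percentile, and by construction with the other 2, which move every value alike. The distance was 0.29 with quantile normalization, 0.30 with cyclic loess and 0.87 with normexp background correction. Under normexp fewer features passed: 20 subunits rose, against 7.93% of all kept probes.

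**Figure D2:**
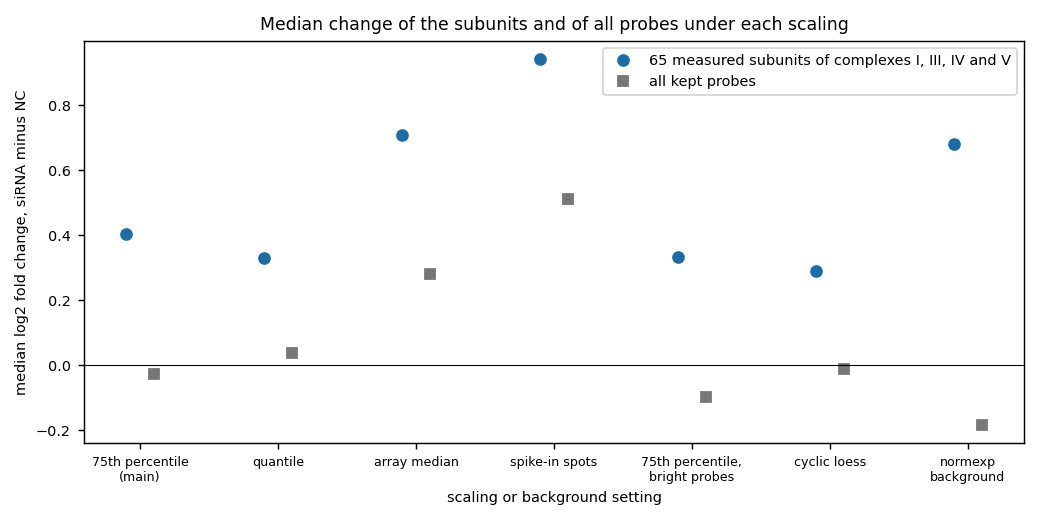
Circles give the median log2 fold change, siRNA minus NC, of the 65 subunits and squares that of all kept probes, under the main scaling and 6 others. The circle lies above the square in all 7, by the same distance by construction in the 4 that subtract 1 value per array, and the squares run from -0.18 with normexp to 0.51 with the spike-in spots.

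Most member probes were bright, and bright probes rose more often than dim ones on these arrays. Of the 98 kept member probes, 56 lay in the top 10% of kept probes by mean signal. In that top 10%, 44.8% of all 2486 probes rose and 16.0% fell, with a median log2 fold change of 0.13, whereas 53 of the 56 member probes rose, none fell, and their median was 0.40. Between the 75th and 90th percentiles of signal, 18 of 21 member probes rose and 1 fell (median 0.37), against 43.7% and 21.6% of all probes there (median 0.11). Between the 50th and 75th percentiles, 6 of 11 member probes rose and 1 fell (median 0.20), against 35.4% and 28.5% of all probes there (median 0.03). In the dimmer 50% of probes, 2 of 10 member probes rose and 2 fell (median 0.03), against 19.7% and 39.9% of all probes there (median -0.21). The share that rose was at the background there, while the median lay above that of all probes. Both probes that fell were of the assembly factor Ndufaf4. How far brightness itself moves the values was not tested.

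**Figure D3:**
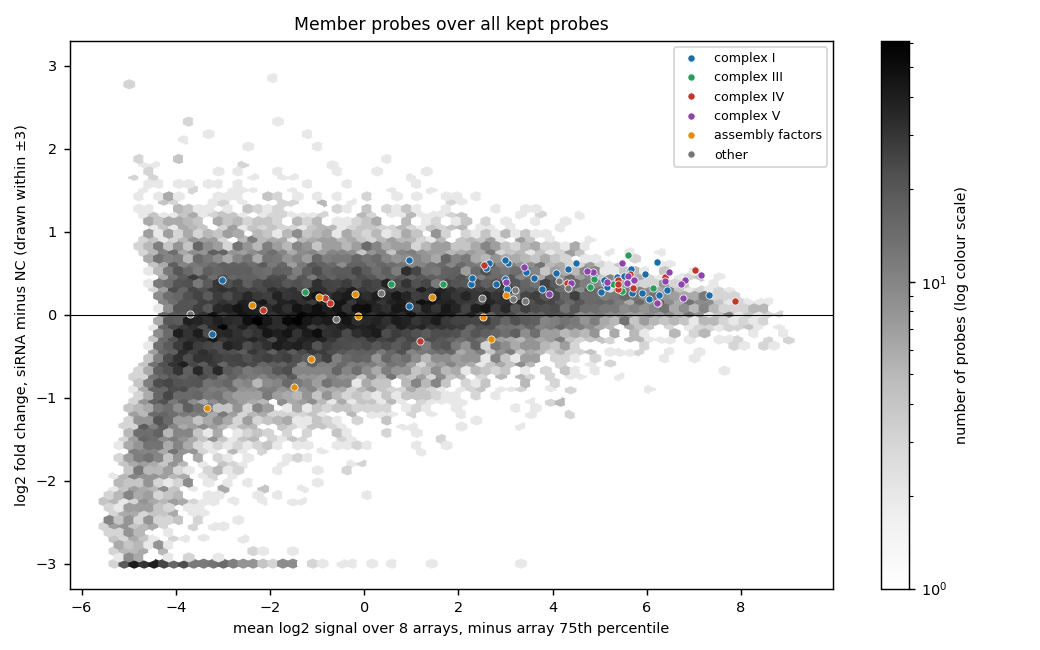
Grey hexagons count all kept probes by mean log2 signal and log2 fold change (siRNA minus NC, drawn within -3 to 3), and coloured points are the member probes. The members of complexes I, III, IV and V crowd the bright end and lie mostly on the upper side of the cloud.

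Other large assemblies encoded in the nucleus give a scale for these values. Among 68 tested genes of mitochondrial ribosomal proteins, 43 rose and 3 fell, with a median log2 fold change of 0.25. Among 73 cytosolic ribosomal proteins, 23 rose and 7 fell (median 0.07), and among 37 tested proteasome subunits 22 rose and 1 fell (median 0.16). For the cytosolic ribosomal proteins the share that rose is near the 30.0% of all genes, while 31.5% of all genes fell. These are counts and medians set side by side, with no test between the lists.

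All 32 complex I subunits on the array were measured, and 30 of them rose, against 30.0% of all genes. The median log2 fold change was 0.43 (1.34-fold). The 7 core subunits, which carry the flavin and iron-sulfur centres or bind ubiquinone, included 6 that rose. Ndufs7, a core subunit with an iron-sulfur centre next to the ubiquinone site, stood at 4.76, 4.80, 4.77 and 4.88 on siRNA arrays, against 4.24, 4.17, 4.07 and 4.25 on NC arrays. The groups did not overlap, and the log2 fold change was 0.62 ± 0.06 (SE; limma, adjusted p = 7.82e-05). Ndufs3 and the flavoprotein subunits Ndufv1 and Ndufv2 rose by 0.50, 0.37 and 0.45. Ndufs1, the subunit with the most iron-sulfur centres, was the core subunit that did not pass, at 1.01 ± 0.05 on siRNA arrays and 0.90 ± 0.06 on NC arrays (SD, n = 4 each; limma, adjusted p = 0.0934).

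Of the 25 accessory subunits of complex I, 24 rose. Ndufa11, a membrane subunit at the joint between complex I and complex III in supercomplexes, had the largest value, with levels of 3.38, 3.27, 3.34 and 3.27 on siRNA arrays, against 2.74, 2.62, 2.50 and 2.75 on NC arrays. That is a log2 fold change of 0.66 ± 0.07 (SE; 1.58-fold; limma, adjusted p = 0.000115). Ndufa12, an accessory subunit of the peripheral arm, was at 6.52, 6.55, 6.51 and 6.50 on siRNA arrays, against 5.97, 5.83, 5.87 and 5.89 on NC arrays. Its siRNA arrays had an SD of 0.02, and its log2 fold change of 0.63 ± 0.05 had the smallest adjusted p of complex I (2.45e-05, limma). Ndufa2, an accessory subunit with a thioredoxin-like fold, read 3.29, 3.42, 3.37 and 3.33 on siRNA arrays, against 2.86, 2.68, 2.56 and 2.86 on NC arrays, a change of 0.62 ± 0.08. Ndufab1, the mitochondrial acyl carrier protein, which also serves fatty acid synthesis and iron-sulfur cluster assembly, rose by 0.38. The remaining accessory subunits that rose did so by 0.23 (Ndufa5) to 0.55 (Ndufb6).

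Ndufb3, an accessory subunit of the membrane arm, was the other complex I subunit that did not pass, at 6.13 ± 0.14 on siRNA arrays and 5.95 ± 0.06 on NC arrays (SD, n = 4 each; limma, adjusted p = 0.0647). It is shown because its probes read opposite strands. On rn4 the brighter probe lies on the + strand at chr9:57262874-57262933 and the other on the - strand at chr9:57262705-57262764, and the first 30 bases of each, 5′ to 3′, were:
Ndufb3, + strand probe: tcaccatagcatccttggctgtgtgtctgt
Ndufb3, - strand probe: caaacccccatttgaatccttttaacatta
The + strand probe changed by 0.19 ± 0.08 and the - strand probe by -0.23 ± 0.17 (SE), and neither passed (limma, adjusted p = 0.0647 and 0.257). Both were above background on all 8 arrays.

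All 6 measured subunits of complex III rose, against 30.0% of all genes, with a median log2 fold change of 0.35 (1.28-fold). Uqcrh, the hinge protein that helps cytochrome c bind to cytochrome c1, had the largest value of all members. Its levels were 5.99, 6.0, 6.02 and 5.86 on siRNA arrays, against 5.36, 5.23, 5.18 and 5.21 on NC arrays, a log2 fold change of 0.72 ± 0.06 (SE; 1.65-fold; limma, adjusted p = 3.99e-05). The other 5 lay in a narrow band from 0.29 (Uqcr11) to 0.37. Uqcrfs1, the Rieske iron-sulfur protein, was at 5.44, 5.51, 5.47 and 5.40 on siRNA arrays, against 5.22, 5.07, 5.02 and 5.02 on NC arrays, with a log2 fold change of 0.37 ± 0.06. Uqcrc1 and Uqcrc2 are the core proteins on the matrix side. Uqcrc1 read 0.77, 0.72, 0.85 and 0.68 on siRNA arrays, against 0.41, 0.34, 0.28 and 0.52 on NC arrays, and Uqcrc2 read 4.95, 5.03, 4.97 and 4.93 on siRNA arrays, against 4.70, 4.66, 4.59 and 4.58 on NC arrays. Neither overlapped between groups, and they rose by 0.37 ± 0.07 and 0.34 ± 0.05. Uqcrq was above background on none of the 8 arrays and was not tested.

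Uqcrb, which lines the ubiquinone-binding region of complex III, had 4 probes, and 2 of them read opposite strands of a shared stretch. Probes A_42_P668800 and A_44_P160785 overlap by 40 bases on opposite strands of chromosome 7. The stretch chr7:67958477-67958506 (rn4) read 5′ to 3′ on each probe, with capitals for the bases that both probes cover, was:
Uqcrb, - strand probe: TTGCATTTAGGAAAAGTCTGTATTCCATTA
Uqcrb, + strand probe: TAATGGAATACAGACTTTTCCTAAATGCAA
The - strand probe was above background on 8 of 8 arrays and rose by 0.28 ± 0.07, while the + strand probe was above background on 0 of 8 arrays. Each probe also holds bases outside the overlap, and the part of the strand in this difference was not tested. The other 2 Uqcrb probes, both on the - strand, rose by 0.33 and 0.43. 

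In complex IV, 12 of 16 subunit genes were measured, of which 10 rose, 1 fell and 1 was not called. Of all genes, 30.0% rose and 31.5% fell. The median log2 fold change of the 12 was 0.35 (1.28-fold). Cox7c, a small membrane subunit, was at 3.03, 2.86, 2.84 and 2.64 on siRNA arrays, against 2.38, 2.24, 2.16 and 2.22 on NC arrays, with a log2 fold change of 0.59 ± 0.09 (SE; 1.51-fold). Its second probe rose by only 0.14 ± 0.04, so the size of the change depended on the probe. Cox8a, the ubiquitous form of subunit VIII, read 7.34, 7.20, 7.38 and 7.27 on siRNA arrays, against 6.79, 6.74, 6.76 and 6.77 on NC arrays (0.54 ± 0.05; limma, adjusted p = 8.91e-05). Cox7b read 5.81, 5.90, 5.95 and 5.84 on siRNA arrays, against 5.47, 5.34, 5.31 and 5.43 on NC arrays, and Cox6c read 6.61, 6.61, 6.68 and 6.54 on siRNA arrays, against 6.15, 6.18, 6.18 and 6.14 on NC arrays. They are small single-span subunits, and rose by 0.49 ± 0.06 and 0.45 ± 0.05. Ndufa4, named for complex I but now counted as a complex IV subunit, rose by 0.32.

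The smallest called rises of complex IV were those of Cox5a, a matrix-facing subunit (0.14 ± 0.04), and Cox6a1, the form of subunit VIa found in most tissues. Cox6a1 was at 8.01, 7.99, 7.96 and 7.87 on siRNA arrays, against 7.86, 7.76, 7.80 and 7.74 on NC arrays, a difference of 0.17 ± 0.05 (limma, adjusted p = 0.0221). This call is a weak one: with cyclic loess the change was 0.04 (adjusted p = 0.394), and without siRNA replicate 1 or 2 or NC replicate 2 or 4 the adjusted p was 0.0517 to 0.0618. Cox6a2, the heart and skeletal muscle form, read -0.45, -0.82, -0.80 and -0.84 on siRNA arrays, against -0.97, -0.89, -0.89 and -0.96 on NC arrays. Every siRNA array was above every NC array, but replicate 1 stood well above the others, and the change of 0.20 ± 0.09 was not called (limma, adjusted p = 0.0859). The second Cox6a2 probe changed by 0.05 ± 0.14 and was not called (limma, adjusted p = 0.765), and on it the groups overlapped. Cox6b2 and Cox8c, both known from testis, were above background on 0 of 8 arrays. Cox8b was above background on 0 siRNA arrays and 2 NC arrays, and Cox7b2 on 0 siRNA arrays and 1 NC array.

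Cox4i2 was the only subunit that fell. It is the lung-rich, hypoxia-inducible form of subunit IV, and Cox4i1 is the form that most tissues use. Cox4i2 was at 1.09, 0.92, 0.91 and 1.21 on siRNA arrays, against 1.25, 1.44, 1.39 and 1.32 on NC arrays, whereas Cox4i1 was at 4.54, 4.49, 4.53 and 4.42 on siRNA arrays, against 4.17, 4.10, 4.03 and 4.14 on NC arrays. In neither gene did the groups overlap, but they were ordered in opposite ways. Cox4i2 fell by 0.32 on the log2 scale (SE 0.08; 1.25-fold lower; limma, adjusted p = 0.0109), and Cox4i1 rose by 0.39 ± 0.05 (1.31-fold; limma, adjusted p = 0.000413). The fall of Cox4i2 rests on the scaling: it was -0.01 with the array median and 0.22 with the spike-in spots, and neither passed (adjusted p = 0.893 and 0.0723). The pair was measured by 1 probe each, shown to identify them by their first 30 bases, Cox4i2 on rn4 at chr3:143114063-143114122 and Cox4i1 within chr19:51024035-51025064, a span longer than the probe's 60 bases:
Cox4i2 probe: ggaaaaagtgaccaacatcacagtctgctg
Cox4i1 probe: gcagcagtggcagaatgttggctaccaggg

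The ratio of 2 probes on the same array does not depend on a scaling that subtracts 1 value per array. Quantile normalization and cyclic loess can move 2 probes by different amounts, and the ratio under them is not given here. The log2 ratio of Cox4i2 to Cox4i1 was -3.45, -3.57, -3.62 and -3.21 on siRNA arrays, against -2.92, -2.66, -2.64 and -2.82 on NC arrays, so that every siRNA array was lower than every NC array. The mean was -3.46 ± 0.19 on siRNA arrays and -2.76 ± 0.13 on NC arrays (SD, n = 4 each), a change of -0.71, or 1.63-fold lower. In a two-sided exact permutation test over the 70 assignments this gave p = 0.0286, the smallest the design allows, and 0.0857 after Benjamini-Hochberg adjustment over the 3 pairs measured, which is above 0.05. The change was -0.79 to -0.65 with any single array left out and -0.85 with normexp. Of the other measured pairs, Cox6a2 to Cox6a1 changed by 0.04 (exact permutation p = 0.771) and Cox7a2l to Cox7a2 by -0.10 (exact permutation p = 0.457). The other 4 of the 7 listed pairs had no kept probe for one of their members.

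**Figure D4:**
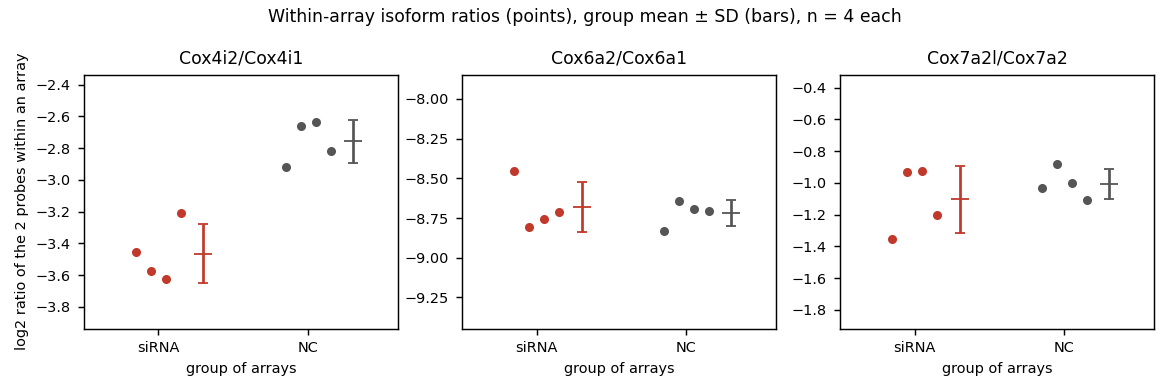
Points give the log2 ratio of 2 probes on each array for 3 isoform pairs, siRNA arrays left and NC arrays right, with the mean ± SD (n = 4 each); each panel spans the same 1.6 log2 units. For Cox4i2/Cox4i1 the siRNA points, -3.62 to -3.21, all lie below the NC points, -2.92 to -2.64, and for the other pairs the groups overlap.

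Of the 15 ATP synthase genes, all were measured and 13 rose, against 30.0% of all genes, with a median log2 fold change of 0.42 (1.33-fold). The file's older symbols are used, with current symbols in parentheses for the genes described. All 5 genes of the F1 head rose. Atp5a1 (Atp5f1a), the alpha subunit, was at 3.65, 3.70, 3.65 and 3.71 on siRNA arrays, against 3.21, 3.03, 2.95 and 3.22 on NC arrays, with a log2 fold change of 0.58 ± 0.07 (SE; limma, adjusted p = 0.000289). Atp5c1 (Atp5f1c), the gamma subunit that forms the rotating shaft, was at 4.95, 4.99, 5.04 and 4.96 on siRNA arrays, against 4.54, 4.42, 4.33 and 4.53 on NC arrays, a rise of 0.53 ± 0.06. Atp5b (Atp5f1b), the catalytic beta subunit, had the smallest rise of the head at 0.25 (limma, adjusted p = 0.0360).

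Of the 10 genes of the Fo part and the stalks, 8 rose. Atp5j2 (Atp5mf), the membrane subunit f, read 5.97, 5.88, 5.86 and 5.46 on siRNA arrays, against 5.22, 5.13, 5.12 and 5.21 on NC arrays. The fourth siRNA array was the lowest of its group, yet above all NC arrays, and the log2 fold change was 0.62 ± 0.11. Atp5j (Atp5pf), coupling factor 6 of the peripheral stalk, read 5.08, 5.12, 5.22 and 5.01 on siRNA arrays, against 4.66, 4.62, 4.57 and 4.53 on NC arrays, and rose by 0.51 ± 0.06. The genes Atp5g1, Atp5g2 and Atp5g3 (Atp5mc1, Atp5mc2 and Atp5mc3), which encode the same mature subunit c of the rotor ring, rose by 0.39, 0.40 and 0.42. Atp5l (Atp5mg), the membrane subunit g, read 6.66, 6.85, 6.75 and 6.67 on siRNA arrays, against 5.51, 6.50, 6.47 and 6.42 on NC arrays. NC replicate 1 was far below the rest, and the change of 0.51 ± 0.22 was not called (limma, adjusted p = 0.0717). Without that array it was 0.27 and passed (limma, adjusted p = 0.0101). Atp5h (Atp5pd), subunit d of the peripheral stalk, was at 6.29 ± 0.08 on siRNA arrays and 6.15 ± 0.08 on NC arrays (SD, n = 4 each; limma, adjusted p = 0.0811).

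**Figure D5:**
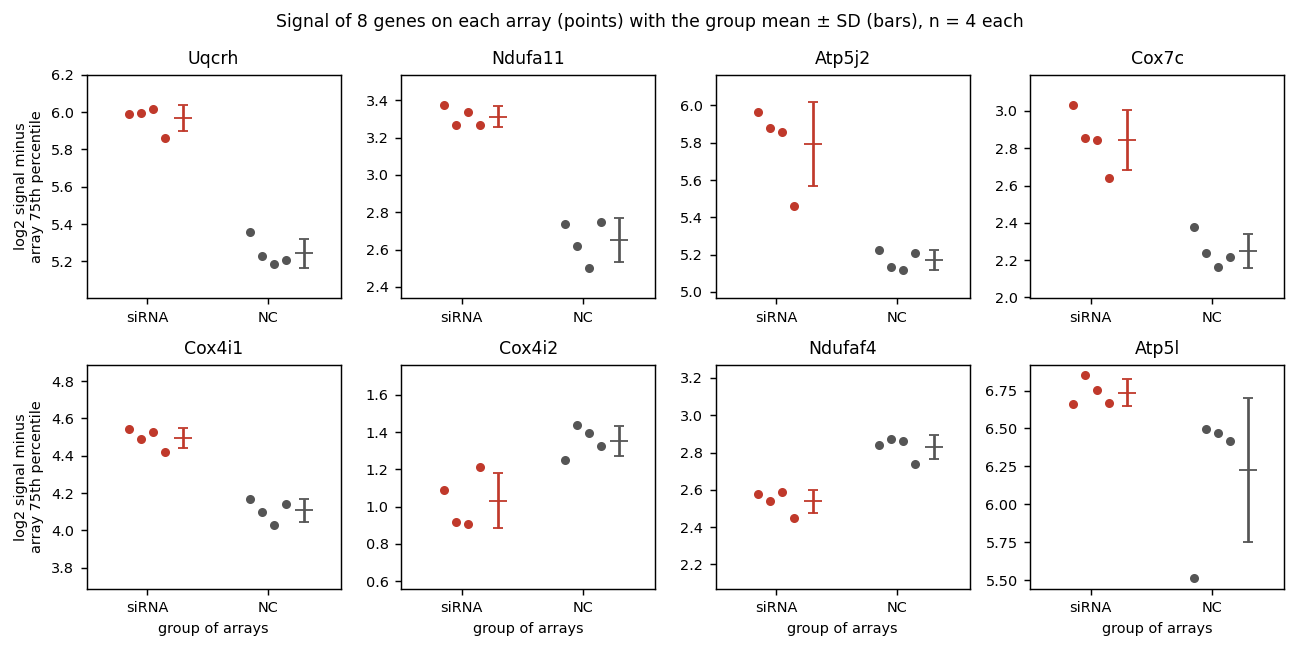
Levels of 8 genes on each array (log2 signal minus the array's 75th percentile), siRNA arrays left and NC arrays right, with the mean ± SD (n = 4 each). Uqcrh, Ndufa11, Atp5j2, Cox7c and Cox4i1 are higher on every siRNA array, Cox4i2 and Ndufaf4 are lower on every siRNA array, and Atp5l has 1 NC array at 5.51, below its other NC arrays at 6.42 to 6.50.

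The 8 assembly factors of complex I, which help to build the complex and are not part of it, were spread around 0: 3 rose, 1 fell and 4 were not called, with a median log2 fold change of 0.10. The share that rose is near the 30.0% of all genes. Ndufaf7, a mitochondrial methyltransferase, was at -0.10, -0.04, -0.03 and -0.16 on siRNA arrays, against -0.31, -0.40, -0.32 and -0.29 on NC arrays (0.25 ± 0.05). Ndufaf5, which hydroxylates Ndufs7 in human cells, was at 3.1, 3.19, 3.13 and 3.1 on siRNA arrays, against 2.99, 2.91, 2.82 and 2.84 on NC arrays (0.24 ± 0.05), and Ndufaf3, a binding partner of Ndufaf4, was at 1.59, 1.58, 1.56 and 1.41 on siRNA arrays, against 1.39, 1.31, 1.30 and 1.32 on NC arrays (0.21 ± 0.06). These 3 rises were below the median of the subunits, and none of the groups overlapped. Ndufaf2 had the widest spread, with 2 of 4 siRNA arrays and all NC arrays above background and a change of -1.13 ± 0.61 that was not called (limma, adjusted p = 0.141); without NC replicate 3 the change was -0.48.

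Ndufaf4, which acts early in complex I assembly, was the assembly factor that fell. Its brightest probe was at 2.58, 2.54, 2.59 and 2.45 on siRNA arrays, against 2.84, 2.87, 2.86 and 2.74 on NC arrays. It fell by 0.29 on the log2 scale (SE 0.05; 1.22-fold lower; limma, adjusted p = 0.00209). The gene has 3 probes spread over chromosome 5, which all fell, by different amounts. They are shown by their first 30 bases, 5′ to 3′, in the order of their positions on the + strand of rn4, chr5:39940240-39940299, chr5:39943233-39943292 and chr5:39944700-39944759:
Ndufaf4, first probe: agaagtttctaggaaagataacaagctgct
Ndufaf4, middle probe: aggagatcaatttgacaagaatatcaagga
Ndufaf4, last probe: ttgtaaggtttttcagatctaggtctagtg
The first probe fell by 0.87, the middle one by 0.54 and the last, brightest one by 0.29. The order of these falls follows brightness as well as position. The first and middle probes lay in the dimmer 50% of kept probes, where 39.9% of all probes fell. The first probe kept a negative, called value under all 6 other scalings and backgrounds (-0.94 to -0.33). The middle one lost its call with the array median (-0.23), normexp (-0.48) and the spike-in spots (-0.00049). There its adjusted p was 0.0986, 0.0689 and 0.997 (limma). The last one turned to 0.02 with the array median and to 0.25 with the spike-in spots, the latter past the threshold (limma, adjusted p = 0.0109).

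Of the 7 names that fit the pattern but are not subunits, 5 rose, against 30.0% of all genes. Among the 5, Ndufa7l rose by 0.16 and passed only narrowly (limma, adjusted p = 0.0498). Ndufa10l1, a gene resembling complex I subunit Ndufa10, read 4.30, 4.33, 4.42 and 4.34 on siRNA arrays, against 4.05, 3.96, 3.85 and 3.91 on NC arrays (0.41 ± 0.06). Of its other kept probes, 1 rose by 0.20 and 1 changed by 0.29 and was not called (limma, adjusted p = 0.108). Atp5hl1, a copy of Atp5h, read 0.56, 0.44, 0.50 and 0.43 on siRNA arrays, against 0.25, 0.18, 0.21 and 0.23 on NC arrays (0.27 ± 0.05). Probes of such copies may also bind the parent transcript, and their values are uncertain for that reason. Cox7a2l, which tethers complex III to complex IV in supercomplexes, read 4.42, 4.57, 4.57 and 4.42 on siRNA arrays, against 4.26, 4.17, 4.13 and 4.16 on NC arrays (0.32 ± 0.06). Cox7a2, the subunit it resembles, read 5.77, 5.51, 5.49 and 5.62 on siRNA arrays, against 5.29, 5.05, 5.13 and 5.27 on NC arrays (0.41 ± 0.09). Cox4nb, now named Emc8 and part of a complex of the endoplasmic reticulum, read 3.19, 3.20, 3.34 and 3.25 on siRNA arrays, against 3.08, 3.03, 2.96 and 3.16 on NC arrays (0.19 ± 0.06; limma, adjusted p = 0.0255), and lost its call with quantile normalization, cyclic loess, no filter and the replicate block, among others.

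Where a gene had several kept probes, these mostly moved together. Of 14 such genes, 10 had all probes called in the same direction and none had probes called in opposite directions. The Ndufa2 probes, which overlap, rose by 0.62 each, the Uqcrfs1 probes by 0.37 each, and the Atp5g3 probes by 0.38 to 0.42. Ndufc2 ranged from 0.49 to 0.66 and Ndufs8 from 0.37 to 0.57. Over all kept member probes, 79 of 98 rose and 4 fell, against 29.7% and 31.9% of all kept probes.

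Promoters of respiratory genes are known for binding sites of the factors NRF1, GABPA (an ETS family factor, also called NRF2) and YY1. RefSeq promoters of the GRCr8 assembly, from 250 bases before to 50 bases after the gene start, were found for 70 of the 85 current symbols. Both strands were searched for an NRF1-type motif, CCGGAAG (ETS type) and AAGATGGC (YY1 type), and overlapping matches were allowed. The letters of the NRF1-type motif are the capitals of the Ndufaf4 stretch printed further on, with any base allowed at the sixth place. The NRF1 type was found in 21.4% of the member promoters (15 of 70), against 10.3% of the 8900 promoters found for measured genes and 4.25% of all 33469 promoters. The ETS type was in 28.6% (20 of 70), against 18.5% of measured genes and 8.75% of all. The YY1 type was in 18.6% (13 of 70), against 5.60% of measured genes and 3.17% of all. At least 1 of the 3 was in 39 of 70 member promoters, or 55.7%, against 29.9% of measured genes.

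Members with and without a match are set side by side here. The median log2 fold change was 0.41 for 38 measured members with any of the motifs and 0.37 for 27 without. For single motifs it was 0.40 with and 0.38 without the NRF1 type, 0.47 and 0.38 for the ETS type, and 0.48 and 0.38 for the YY1 type. Over the measured genes with a promoter found, the median was 0.06 for 2662 genes with any motif and 0.04 for 6238 without. These are descriptions of letters in a window, with no test.

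4 stretches are printed, with the motif letters in capitals, each 5′ to 3′ on the strand of the gene in GRCr8: those of the complex I subunit with the largest rise, of 2 complex IV subunits with paired matches, and of the assembly factor that fell. Ndufa11, at chr9:1637504-1637553 on the + strand, holds 2 overlapping NRF1-type matches in the stretch from position -110 to position -61 relative to its start. Cox8a, at chr1:213833634-213833693 on the - strand, holds 2 ETS-type matches on the opposite strand from position -70 to position -11. Cox4i1, at chr19:65630384-65630413 on the + strand, holds 2 ETS-type matches on the opposite strand from base 2 to base 31 of the transcript. Ndufaf4, which fell, at chr5:43401625-43401664 on the + strand, also holds an NRF1-type match.
Ndufa11: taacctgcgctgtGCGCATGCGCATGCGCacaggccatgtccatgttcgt
Cox8a: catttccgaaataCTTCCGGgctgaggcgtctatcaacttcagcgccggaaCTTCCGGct
Cox4i1: ctCTTCCGGtgcgggacccgctCTTCCGGt
Ndufaf4: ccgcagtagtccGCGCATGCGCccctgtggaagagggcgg

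Many members start close to a gene that runs the other way. A start site on the opposite strand, facing away and within 1000 bases, was found for 21 of 70 members (30.0%), against 17.0% of 8900 measured genes. Cox4i1 and Cox4nb are such a pair, with start sites 148 bases apart, and both rose. For 11 members the neighbour was measured and was no member itself. Of these 11 members 9 rose, with a median of 0.47. Of their neighbours 2 rose, 2 fell and 7 were not called, with a median of -0.05. Over all 20674 gene names the median was -0.02, and 30.0% rose and 31.5% fell. The neighbours come from the 8900 measured genes with a promoter, whose medians were 0.06 with any motif and 0.04 without. Ndufa2 and Ik, a spliceosome protein gene 141 bases away, both rose (Ik by 0.46), as did Uqcrh and Lrrc41 (Lrrc41 by 0.15). Atp5c1 rose beside Kin, 143 bases away, which fell by 0.56, and Ndufaf5 rose beside Esf1, 127 bases away, which fell by 0.26. Atp5j and Gabpa start 163 bases apart. Gabpa read -1.88, 0.27, 0.18 and -0.24 on siRNA arrays, against 0.19, 0.29, 0.25 and 0.16 on NC arrays, a wide spread that was not called (limma, adjusted p = 0.239).

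The rest of the pathway was read from lists of genes outside the name rule. Of 7 genes of complex II and the cytochromes, 5 rose, 1 fell and 1 was not called. Over all genes, 30.0% rose and 31.5% fell. Sdhd, a membrane anchor of complex II, rose by 0.60 ± 0.06, and Sdha, its flavoprotein, by 0.35 ± 0.05. Cyct, the testis cytochrome c, was the gene that fell. It was above background on no siRNA array and all NC arrays, so it was kept for the test through the NC arrays alone. Its levels were -5.42 ± 0.45 on siRNA arrays and -3.92 ± 0.19 on NC arrays (SD, n = 4 each; limma, adjusted p = 0.000623). That p-value rests on siRNA values below background and does not belong to the bound, which was at least 1.45-fold lower. That bound sets the NC mean against the higher, per siRNA array, of the probe's own signal and the lowest signal well above background. Of 17 enzymes of the TCA cycle, which supplies the chain with electrons, 13 rose and 1 fell (median 0.28). These counts too stand beside the 30.0% and 31.5% of all genes. Suclg2 rose by 0.48, Fh by 0.53 and Idh2 by 0.83. Cs, named here after its value was seen, was the enzyme that fell (-0.18; limma, adjusted p = 0.0145).

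Of the assembly factors outside the name rule, 30 of a list of 40 were measured, of which 11 rose, 3 fell and 16 were not called, with a median of 0.12. The share that rose is near that of all genes (30.0%), and the share that fell is below it (31.5%). Cox18, which inserts a core subunit of complex IV into the membrane, fell by 0.61 on the log2 scale (SE 0.05), while Cox19, a copper-related factor of complex IV, rose by 0.36 and Coa4 by 0.31. Of 15 measured regulators of mitochondrial biogenesis, 3 rose, 6 fell and 6 were not called, with a median of -0.13, against 30.0% and 31.5% of all genes, so that the counts do not set these regulators apart. Twnk, the mitochondrial DNA helicase, fell by 0.69, and Ppargc1b, a coactivator of respiratory genes, and Polg, the mitochondrial DNA polymerase, rose by 0.84 and 0.58. Of the factors whose motifs were searched, named here after their values were seen, Nrf1 changed by 0.13 (limma, adjusted p = 0.0931) and Yy1 fell by 0.23 (limma, adjusted p = 0.0133).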

How the data were processed

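Total RNA of 8 samples was measured on 1-colour Agilent arrays. Per the file headers, the deposited processed intensity came from Feature Extraction 12.0.3.1 (12.0 in the submitters' processing notes), background-subtracted within the array and not scaled between arrays. Mean and local background intensities, also deposited, served the normexp alternative (offset 50). Controls and spots marked as outliers, 129 to 174 an array, were dropped; none was saturated. From the intensities, log2 minus the array's 75th percentile was taken and spots of a probe averaged. Probes well above background on at least 3 of 4 arrays of a group were kept (24853 of 41012). The test was limma's lmFit with eBayes (limma 3.58.1, R 4.3.3), two-sided, with Benjamini-Hochberg adjustment over kept probes, checked on simulated data. Isoform ratios were tested by exact permutation (scipy 1.17.1). Probe positions come from the array design (rn4), and promoters are RefSeq's on GRCr8. Samples were grouped by title. Replicate numbers recur in both groups, but same-numbered arrays correlated at -0.03 to 0.21, so the numbers were not taken to pair arrays. Named genes were, per complex, up to 4 called genes with the largest rise and up to 4 with the largest fall, among those above background on all 8 arrays, members of isoform pairs, and up to 3 genes per other list by adjusted p; further members were named after their values were seen. One member counted in the totals is not reported here by itself. Members and lists were chosen with earlier results of these data known. The labels do not say that the arrays are separate cultures, so p-values reflect the spread among these arrays alone, and that may be technical. Alternatives were other scalings, backgrounds, filters, probe averaging, a replicate block and leaving out each array. The deposited series table holds no member probe and was not used.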

Additional observations from a re-analysis of the deposited data

Results flagged for a closer look

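In 9 of 160 groups of 4 arrays tested among the members, 1 array stood apart: its gap to the nearest other array, as a share of the group's range, passed Dixon's critical value. Chance marks about 1 in 20 groups. In siRNA arrays this share was 0.884 for Ndufs3 (replicate 1 at 4.25, the others 4.34 to 4.35), 0.913 for Ndufab1 (replicate 3 at 5.37, the others 5.26 to 5.27) and 0.865 for Cox5b (replicate 1 at 5.66, the others 5.51 to 5.53). It was 0.848 for Atp5g1 (replicate 4 at 5.30, the others 5.37 to 5.38) and 0.928 for Atp5g3 (replicate 4 at 5.86, the others 5.96 to 5.97). These gaps are small, and without the array that stood apart the 5 genes remained called, with log2 fold changes of 0.53, 0.35, 0.28, 0.41 and 0.44 in that order.

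Cox6a2 had a share of 0.900 in siRNA arrays (replicate 1 at -0.45, the others -0.84 to -0.80), and its change without that array was 0.11. Atp5s, a factor related to the ATP synthase that is not one of its subunits, had a share of 0.940 in siRNA arrays (replicate 4 at -0.87, the others -0.55 to -0.53); its change was -0.06 with that array and 0.03 without it, and neither was called. In NC arrays, Ndufaf2 had a share of 0.914 (replicate 3 at -0.82, the others -3.52 to -3.29). Atp5l had a share of 0.924 in NC arrays (replicate 1 at 5.51, the others 6.42 to 6.50). It was the gene of the 9 whose call changed: the change was 0.51 (limma, adjusted p = 0.0717) with the array and 0.27 (adjusted p = 0.0101) without it.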

How the results depend on the processing

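The count of members that rose, 67 in the main setting, was 57 to 78 under other scalings, filters and probe averaging, and 61 to 67 with single arrays left out. It was 21 with normexp, and again 21 when spots no brighter than their background were dropped before normexp scaling, an alternative chosen after seeing the data; the cause was not tested. The count that fell, 2, was 0 with the array median, the spike-in spots and both normexp settings, and 4 with no filter on dim probes, which added Uqcrq and Cox8c, above background on no array. At 2-fold, 0 members were called in the main setting (69 at the same adjusted p with no size limit), 1 with the array median, 22 with the spike-in spots and 1 with no filter. The median log2 fold change of all measured members was 0.37, and 0.31 with quantile normalization, 0.68 with the array median, 0.91 with the spike-in spots, 0.30 with a percentile over probes bright on all arrays, 0.26 with cyclic loess and 0.64 with both normexp settings. With single arrays left out it was 0.35 to 0.39. Cox4i2 turned to 0.22 with the spike-in spots, and Ndufaf4 to 0.015 and 0.25 with the array median and the spike-in spots. The Cox6a2 to Cox6a1 ratio, which passed in no setting, turned to -0.40 with normexp; with single arrays left out it was -0.0398 to 0.0789. With the replicate number as a block, 66 members rose and 2 fell, and the change of the Cox4i2 to Cox4i1 ratio is -0.71 by construction, since a block leaves the mean difference of a balanced design as it is. Of 551 recomputed values of the 29 named genes, 496 kept direction and side of the threshold, 49 lost the call, 3 gained it and 3 reversed.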
